A study of Daphnia magna with 3 samples.

Results

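The antenna of the water flea Daphnia magna was compared with the carcass (labelled Carcass or Body) across all genes with enough reads to test. The 6 libraries compared are the 3 antenna and the 3 carcass libraries among 21 libraries of 7 body parts, chosen by their body part label. Each of the 3 replicates, numbered 3, 4 and 7, is a pool in which a barcode marks each body part, so every pool holds 1 antenna and 1 carcass library. All animals carried the genotype IL-M1-8 and were kept in ADaM medium at 20 °C, with 20 mL for each adult and a daily meal of green algae at 100000 cells per mL. As far as the labels go, antenna and carcass therefore differed by body part and by its barcode, the same in all 3 pools. Effects of body part and barcode cannot be told apart. The sources used here give no age, no number of animals in a pool and no account of the dissection. Nothing says that pools 3, 4 and 7 were raised apart, so the p-values rest on a spread between libraries that may be technical.

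The second antennae of Daphnia are branched swimming limbs, built of cuticle over epidermis, muscle and nerve, and carry rows of long setae. The small first antennae bear sensory setae. The carcass of a dissected crustacean can be taken to hold what the other dissected parts leave, and in a female it may include trunk limbs, fat tissue and ovary, although the labels do not list its contents. In tissue pieces such as these, fewer cells of a type and less RNA per cell cannot be told apart.

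The identifiers in the deposited table are names of gene models on assembly contigs. Of 33957 identifiers, 0 matched the RefSeq gene table of assembly ASM2063170v1.1, so the genes have no names, functions, marker lists or sequences here, and the labelled tissues could not be checked against defining markers. Each model is called a gene below, and genes are grouped by what their names, lengths and reads in the other 5 body parts show.

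The antenna libraries held 148692, 58544 and 1105094 reads in pools 3, 4 and 7, and the carcass libraries 262185, 177033 and 416875. The antenna of pool 4 is the shallowest and that of pool 7 the deepest of the 6, so counts in the antenna rest on unequal depth. After a filter on low counts 2627 genes could be tested, and their share of a library's reads was 83.9% at the lowest and 90.8% at the highest. That filter asks for reads in about as many libraries as a body part has, so a gene used in 1 body part alone could pass through that body part.

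The antenna libraries had reads on fewer genes than the carcass libraries at equal depth, although 3 libraries against 3 cannot pass a threshold of 0.05. At a common depth of 58544 reads, the antenna libraries showed 6177, 5514 and 6063 genes with at least 1 read in pools 3, 4 and 7, and the carcass libraries 7048, 6407 and 7150. The 2 groups did not overlap, with means of 5918 ± 354 and 6868 ± 403 genes (SD, n = 3; exact two-sided permutation test, p = 0.1, the smallest that 3 libraries against 3 allow). The 100 most counted genes took 55.7% ± 3.9 of antenna reads and 42.4% ± 6.2 of carcass reads (SD, n = 3; exact permutation p = 0.1). For the 10 most counted genes the shares were 33.2% ± 4.5 and 23.7% ± 7.4 (SD, n = 3; exact permutation p = 0.2), and the groups overlapped: the shares were 28.6%, 37.7% and 33.2% in the antenna and 27.0%, 28.7% and 15.2% in the carcass of pools 3, 4 and 7. The median length of the gene model over all reads was 2831 ± 161 bases in the antenna and 2654 ± 322 in the carcass (SD, n = 3; exact permutation p = 0.4).

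Libraries of the same body part were more alike than libraries of different body parts. Across the 2627 genes the mean Spearman correlation was 0.71 among antenna libraries (lowest pair 0.62) and 0.71 among carcass libraries (lowest pair 0.68), and it was 0.42 over the 9 pairs of an antenna and a carcass library (0.24 to 0.57). Genes are not independent replicates, so these values describe the libraries and carry no test.

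Antenna and carcass differed in 451 genes of the 2627 tested, a share of 17.2%. Of these, 213 (8.11%) were higher and 238 (9.06%) lower in the antenna by edgeR's quasi-likelihood test with Benjamini-Hochberg adjustment over all genes tested. The median log2 fold change of antenna over carcass was 2.58 among the higher genes, -3.00 among the lower genes and -0.05 over all genes tested. The genes that passed had changed severalfold: the smallest log2 fold changes called were 1.52 and -1.59. Fold changes of 16 or more, a log2 change of 4 in either direction, were found in 23 higher and 36 lower genes. With library totals in place of the scaling factors, the median over all genes moved to -0.57 and 23.6% of the calls were higher, against 47.2% with the factors, and in fits of all 21 libraries 59.7% were higher with TMM and 64.1% with RLE factors. The balance of directions thus depends on scaling and on the libraries fitted.

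**Figure D1:**
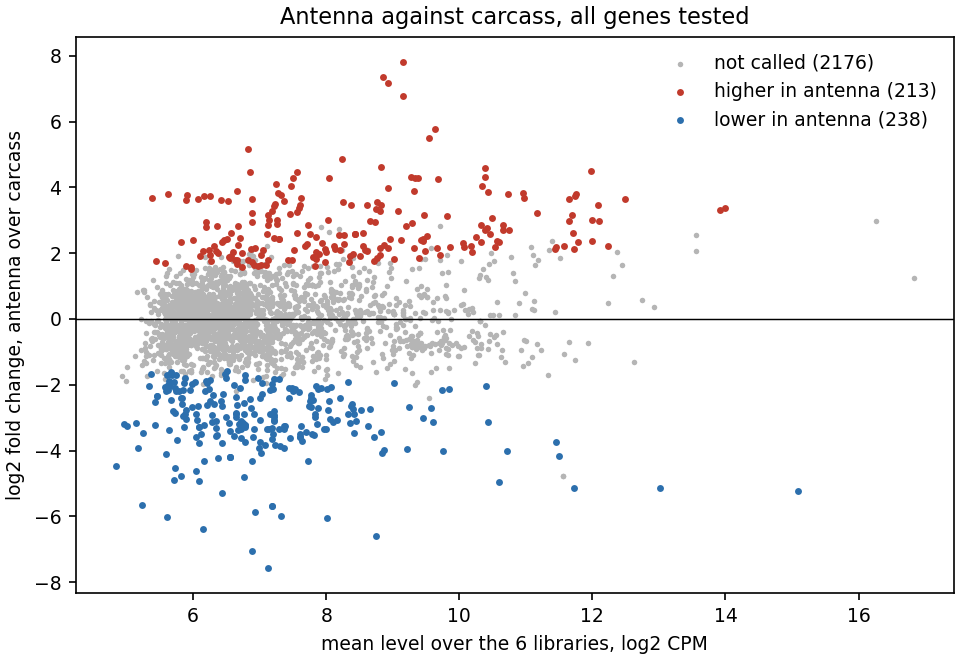
Log2 fold change of antenna over carcass against the mean level over the 6 libraries (log2 CPM), 1 point a gene. The 213 genes higher in the antenna and the 238 lower genes lie above 1.52 and below -1.59, and the genes that were not called are drawn in grey.

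The genes were called on these same 6 libraries, so their direction by pool describes the lists and is no separate support. Of the 213 higher genes 210 were higher in the antenna in 3 of 3 pools, against 651 of all 2627 genes tested, and of the 238 lower genes 234 were lower in 3 of 3, against 764. The median log2 difference between antenna and carcass of a pool was 2.14, 3.26 and 2.34 for the higher genes in pools 3, 4 and 7, and -2.27, -3.62 and -2.79 for the lower genes. Differences were widest in pool 4, which holds the shallowest libraries of both body parts. Every antenna library lay above every carcass library in 193 of the higher genes, against 376 (14.3%) of all genes tested. Every carcass library lay above every antenna library in 231 of the lower genes, against 442 (16.8%) of all genes tested.

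The shares of reads on the 2 lists differ by the way the lists were chosen and are given as a description. The higher genes took 22.8%, 23.3% and 24.7% of antenna reads in pools 3, 4 and 7, and 5.0%, 2.3% and 6.0% of carcass reads. The lower genes took 0.81%, 0.71% and 1.15% of antenna reads and 16.1%, 26.1% and 11.4% of carcass reads. The antenna libraries were thus close to each other in both shares, while the carcass libraries differed more than 2-fold among themselves. In the carcass of pool 4, 1 lower gene alone took 16.85% of the reads, against 2.17% and 1.03% in the carcass of pools 3 and 7 and between 0.03% and 0.18% in the antenna. Without the carcass of pool 4, 117 genes were higher and 200 lower. With all 6 libraries but without the 10 most counted genes of each, that gene among them, 206 were higher and 232 lower. No higher gene weighed as much in the antenna, where the most counted of them took 1.49%, 1.73% and 3.18% of the reads.

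The gene with the largest difference toward the antenna was maker-falcon_000018F-snap-gene-23.93, transcript mRNA-3, a model of 1234 bases. It had 131, 54 and 792 reads in the antenna of pools 3, 4 and 7, and 3, 0 and 1 reads in the carcass. These counts corresponded to 1051, 1268 and 1076 CPM (counts scaled to library size) in the antenna and to 11.3, 0 and 2.21 CPM in the carcass. All antenna libraries lay within a narrow band, far above the carcass libraries. The log2 fold change was 7.81 ± 0.83 (SE, adjusted p = 6.65e-05), and the ratio over summed reads was 240-fold with a 95% counting interval from 93.6 to 884. A neighbouring model in the same numbered block of the contig had nearly the same reads, 130, 54 and 802 in the antenna and 5, 0 and 4 in the carcass, so the 2 models may hold the same reads and are reported as uncertain.

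The second was maker-falcon_000004F-augustus-gene-23.99, transcript mRNA-1, a model of 1750 bases. Its reads were 91, 80 and 111 in the antenna of pools 3, 4 and 7 and 2, 2 and 0 in the carcass. In CPM the antenna stood at 730, 1878 and 151 and the carcass at 7.56, 11.6 and 0. The antenna libraries spread more than 10-fold, with pool 4 highest and the deepest library lowest, yet all lay above the carcass. The log2 fold change was 7.36 ± 1.08 (SE, adjusted p = 0.000326), and the ratio over summed reads was 69.4-fold (95% counting interval 26.8 to 256). The other 4 tested models in its numbered block were not called, with log2 fold changes of -0.90, -0.45, 1.27 and 1.26.

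The largest difference toward the carcass was that of maker-falcon_000018F-snap-gene-16.153, transcript mRNA-1, a model of 827 bases. Its reads were 0, 0 and 1 in the antenna of pools 3, 4 and 7 and 77, 39 and 145 in the carcass. The carcass levels of 291, 227 and 321 CPM were close to each other, and the antenna stood at 0, 0 and 1.36 CPM. The log2 fold change was -7.56 ± 0.87 (SE, adjusted p = 7.56e-05), and the carcass was 265-fold above the antenna over summed reads, with a wide counting interval (95%) from 47.2 to 10517 because it rests on 1 read in the antenna.

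The next was maker-falcon_000023F-augustus-gene-8.55, transcript mRNA-1, a model of 641 bases. It had 0, 1 and 0 reads in the antenna and 71, 43 and 76 in the carcass of pools 3, 4 and 7. Carcass levels were 268, 250 and 168 CPM, against 0, 23.5 and 0 CPM in the antenna, where the 1 read fell in the shallowest library. The log2 fold change was -7.05 ± 1.04 (SE, adjusted p = 0.000326), and the ratio of carcass to antenna over summed reads was 193 (95% counting interval 34.2 to 7667). A second model in its block had 73, 43 and 82 reads in the carcass, so these 2 are uncertain in the same way. Counting intervals cover counting error only.

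**Figure D2:**
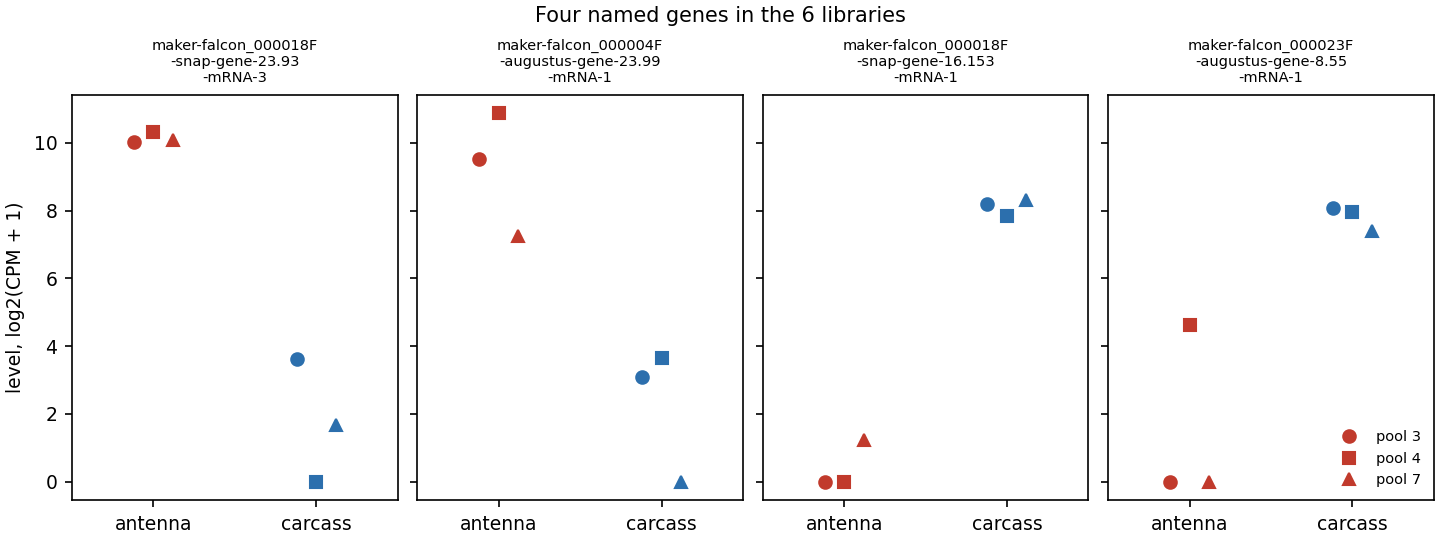
Levels of the genes described above in the 6 libraries, as log2(CPM + 1), with antenna in red, carcass in blue and a marker shape for each pool. In each panel the 3 libraries of one body part lie above all 3 of the other, and the antenna of maker-falcon_000004F-augustus-gene-23.99 spreads from 151 to 1878 CPM.

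The other body parts give the levels of these genes outside the 2 tissues compared. Both genes higher in the antenna had few reads in every library of the other body parts. The first had at most 14 reads in any other library (79.2 CPM, in hemocytes of pool 7), and the second at most 7 (39.6 CPM, in the same library). Neither had a read in the 3 gut libraries, where a count of 0 allows up to 3 reads a library. The gut libraries held only 32202, 4161 and 26378 reads in pools 3, 4 and 7, so moderate levels there could be missed. In a fit of all 21 libraries, the antenna was higher than each of the other 5 body parts in both genes. Both had been picked for high reads in these same antenna libraries. The p-values are therefore no separate support that the genes mark the antenna. Outside the gut the log2 fold changes ran from 5.15 ± 0.82 against hemocytes (adjusted p = 0.00576) to 8.44 ± 0.98 against eggs (adjusted p = 2.08e-05) for the first. They ran from 5.06 ± 0.999 against hemocytes (adjusted p = 0.0369) to 8.45 ± 1.20 against eggs (adjusted p = 4.3e-05) for the second. Against gut, with 0 reads, a fitted fold depends on the prior count and is not given (adjusted p = 0.00999 and 0.0128). Over all 4035 genes tested in that fit, 6.52% differed between antenna and carcass, 0.471% differed between antenna and hemocytes, 1.21% between antenna and head, 2.23% between antenna and carapace, 4.01% between antenna and gut and 41.7% between antenna and eggs. These shares depend on the tool: DESeq2 on the same genes called 139 between antenna and hemocytes against 19 by edgeR, 120 against 49 for head, 185 against 90 for carapace and 300 against 162 for gut.

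The genes higher in the carcass were found in other tissues too, but unevenly. Their counts in the gut came almost all from pool 3: 19, 0 and 1 reads for the first and 37, 0 and 0 for the second in pools 3, 4 and 7. Among hemocytes most reads came from pool 7, with 44 and 34 reads. Neither gene had a read in the egg libraries. Carcass was higher than eggs in both (adjusted p = 0.00069 and 0.0018), with no fold given because of the 0 reads, in a comparison where 19.7% of all 4035 genes differed. Against gut the log2 fold changes were 0.39 ± 1.01 (adjusted p = 0.933) and -0.74 ± 1.06 (adjusted p = 0.847), against hemocytes 1.37 ± 0.93 (adjusted p = 0.826) and 1.60 ± 1.06 (adjusted p = 0.825), and against head 5.09 ± 1.38 for the first (adjusted p = 0.133). The second had 0 reads in the head libraries (adjusted p = 0.133, no fold given). These did not pass, which does not show that the levels are alike. Over all genes 0.223% differed between carcass and hemocytes, 0.471% between carcass and head and 6.94% between carcass and carapace, where DESeq2 called 61, 25 and 372 genes against 9, 19 and 280 by edgeR. Between carcass and gut edgeR called 0 genes, with 417 at an unadjusted p under 0.05, and DESeq2 called 10. Against carapace the values were 3.61 ± 1.15 (adjusted p = 0.0611) and 3.44 ± 1.29 (adjusted p = 0.124), and the first passed with the pool as a block (adjusted p = 0.0278). These comparisons share the antenna and carcass libraries and are not independent of each other. The genes higher in the carcass had likewise been picked for high reads in these same carcass libraries.

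Over the whole lists, the genes higher in the antenna were also used by carapace and, in part, by hemocytes. The level of head beside that of carcass depended on the scaling. On the scale of all 21 libraries, the median level of the 213 genes was 8.99 ± 0.08 log2 CPM in antenna, 8.09 ± 0.39 in carapace, 7.39 ± 1.05 in hemocytes, 7.29 ± 0.68 in head, 6.32 ± 0.46 in carcass, 5.17 ± 1.72 in gut and 4.59 ± 0.64 in eggs (SD, n = 3 for each). Over all 2627 genes the medians lay between 6.48 and 6.89 in every body part but the gut. Hemocytes were split: the medians were 7.57, 6.26 and 8.33 in pools 3, 4 and 7, so that 1 library lay at the carcass level and another near the carapace level. Carapace libraries gave 24.98%, 14.96% and 26.8% of their reads to these genes in pools 3, 4 and 7, above all antenna libraries in pools 3 and 7 and below them in pool 4. Egg libraries gave them 0.86%, 2.61% and 2.36%. With library totals only, their median was 8.41 ± 0.25 log2 CPM in antenna, 7.66 ± 0.08 in carapace and 7.26 ± 0.70 in hemocytes (SD, n = 3 for each). Head then stood at 6.35 ± 0.84, near carcass at 6.3 ± 0.48 (SD, n = 3 for each). Over all genes tested, totals gave medians of 5.89 in head and 6.80 in carcass, against 6.78 and 6.82 with the factors. With either scaling the higher genes thus stood above all genes tested in head and below them in carcass, by the mean of 3 libraries. The head of pool 3 went the other way, at 6.64 against 6.74 with the factors and 6.85 against 6.95 with totals.

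On the same scale, the genes lower in the antenna had their next highest median level, after carcass, in eggs. Their median was 7.65 ± 0.39 log2 CPM in carcass, 7.39 ± 0.07 in eggs, 7.22 ± 0.33 in hemocytes, 6.21 ± 1.08 in head, 5.84 ± 2.06 in gut, 5.78 ± 1.02 in carapace and 5.31 ± 0.19 in antenna (SD, n = 3 for each). With library totals only, the order of the first 2 was reversed, at 8.02 ± 0.05 in eggs and 7.64 ± 0.51 in carcass (SD, n = 3). Totals also moved the egg median over all genes tested, from 6.48 to 7.07, while that of carcass went from 6.82 to 6.80. By mean CPM on the scale of all 21 libraries, 110 of the 238 genes (46.2%) were highest in eggs among the 7 body parts. Carcass was highest in 85 (35.7%). Over all genes tested these shares were 23.2% and 12.9%. On that scale the egg libraries lay close together, between 7.33 and 7.46, while head ran from 5.26 to 7.39 and carapace from 4.72 to 6.75. The gut median of pool 4 is that of a gene with 0 reads, since in that library 20.6% of the lower and 12.2% of the higher genes had a read.

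**Figure D3:**
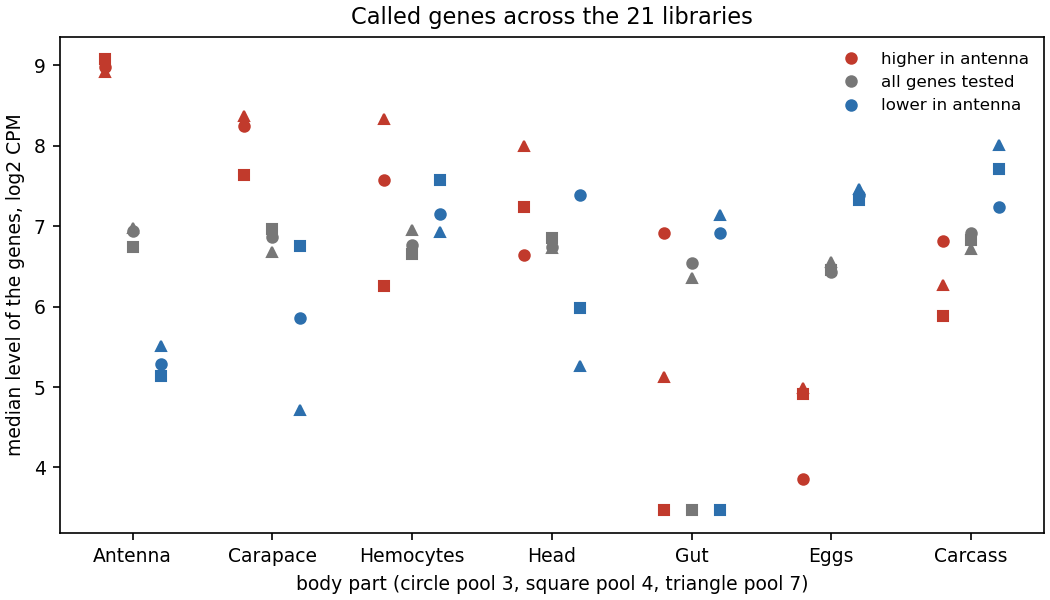
Median level (log2 CPM, scaled over all 21 libraries) of the genes higher in the antenna (red), lower in the antenna (blue) and of all genes tested (grey) in each library. Antenna and carcass lie apart by the choice of the genes. Among the others, the red points are highest in carapace at 7.64 to 8.37, and the blue points of eggs lie together at 7.33 to 7.46.

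The genes were then grouped by levels in none of the 6 libraries, although only genes that passed the filter on these 6 could be grouped. An egg gene with few antenna reads could pass only through its carcass reads, and so leans to the lower side. A carapace gene with few carcass reads could likewise pass only through the antenna. The shares below are therefore a description and no separate support. Each gene was assigned to the body part with its highest mean CPM among the 5 that were not compared. Of the 788 genes highest in carapace, 113 (14.3%) were higher and 8 (1.0%) lower in the antenna, with a median log2 fold change of 0.49 over all 788. Of the 733 genes highest in eggs, 2 (0.27%) were higher and 121 (16.5%) lower, with a median of -0.61. Over all genes the shares called were 8.11% and 9.06%, so carapace and egg genes stood on opposite sides of the background. The direction held in each pool: the median difference of the carapace genes was 0.23, 0.59 and 0.62 and that of the egg genes -0.30, -1.23 and -0.47 in pools 3, 4 and 7.

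Genes highest in hemocytes and head were less one-sided, and those highest in gut were more often lower. Of the 399 hemocyte genes, 47 (11.8%) were higher and 33 (8.3%) lower, and of the 554 head genes 46 (8.3%) were higher and 35 (6.3%) lower. Of the 153 gut genes, 5 (3.3%) were higher and 41 (26.8%) lower. The gut includes the library of pool 4, where 18.7% of the tested genes had a read. With genes ranked by the median of the 3 libraries, 132 were highest in gut, of which 3 (2.3%) were higher and 20 (15.2%) lower. Under this ranking 128 of 810 carapace genes (15.8%) were higher and 124 of 728 egg genes (17.0%) lower. Ranked by CPM with library totals only, 114 of 522 carapace genes (21.8%) were higher and 135 of 1270 egg genes (10.6%) lower, the latter near the background of 9.06%, with 5 egg genes (0.39%) higher. Totals also gave 65 of 362 hemocyte genes (18.0%) higher and 26 (7.2%) lower, and left 62 head genes, 10 (16.1%) higher and 11 (17.7%) lower. The sizes and shares of these groups thus depend on the scaling, and both other rankings were chosen after seeing the data.

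The lower genes of different groups weighed unequally in the carcass. The 121 egg genes took 1.71%, 2.75% and 4.86% of carcass reads in pools 3, 4 and 7 and between 0.17% and 0.40% of antenna reads. The 35 head genes took 12.2%, 21.1% and 3.7% of carcass reads and between 0.18% and 0.57% of antenna reads. The gene with 16.85% of the reads of the carcass of pool 4 carried most of the 21.1%. The share of the lower head genes was 10.3%, 4.4% and 2.9% when ranked by the median and 7.2%, 0.76% and 0.54% when ranked by totals, so it depends on the ranking. The part that egg or head tissue in the carcass sample may have in these differences was not tested.

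**Figure D4:**
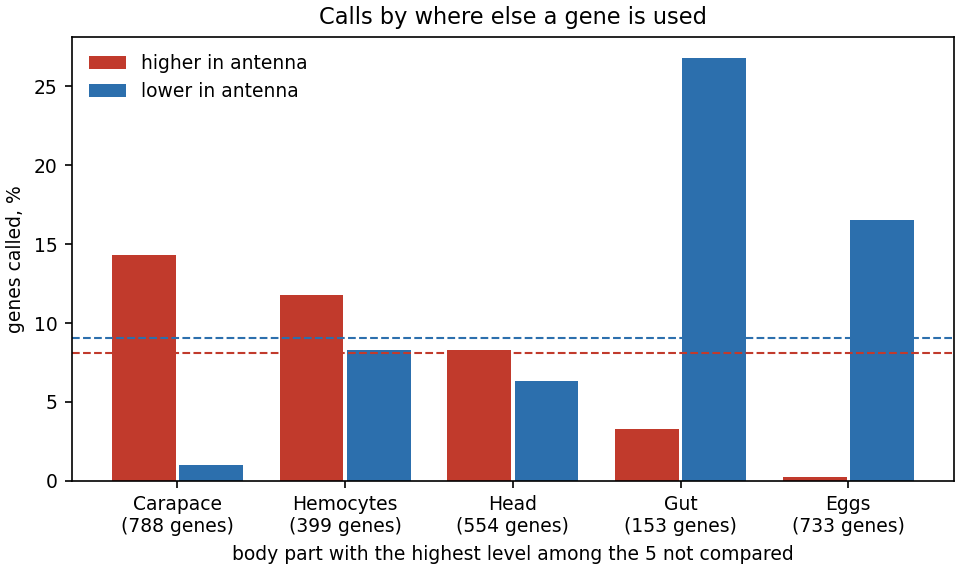
Share of tested genes called higher (red) or lower (blue) in the antenna, by the body part with the gene's highest level among the 5 not compared. Dashed lines give the shares over all genes, 8.11% and 9.06%. Carapace genes are called higher in 14.3% and lower in 1.0%, and egg genes in 0.27% and 16.5%.

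The share of called genes differed between contigs of the assembly, and whether it did so beyond counting error was not tested. The 32 contigs with at least 20 tested genes held 83.7% of the genes tested. Their share of genes higher in the antenna ran from 0% to 32.7%, with a median of 5.5%, against 8.11% over all genes tested. Contig falcon_000036F led with 17 of 52 genes higher and 3 lower, and a median log2 fold change of 1.71 over its 52 genes. Contigs falcon_000031F (9 of 37), falcon_000018F (19 of 79) and falcon_000047F (5 of 22) followed, each above 20%, while falcon_000022F, falcon_000024F and falcon_000026F had none higher among 56, 30 and 60 genes. The share of lower genes ran from 0% to 19.15%, with the highest value in falcon_000013F (9 of 47). Its median was 7.3%, against 9.06% over all genes tested. These contigs were picked out after their counts were seen, so their order is a description.

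**Figure D5:**
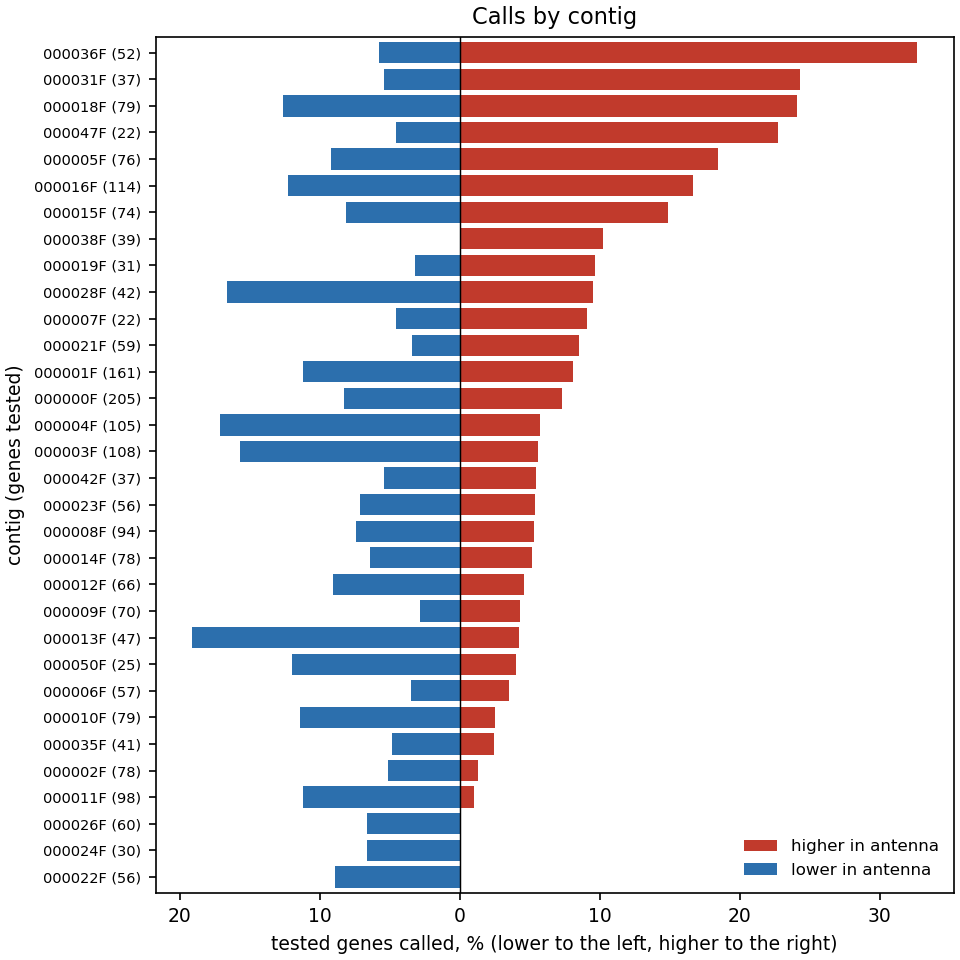
Share of tested genes higher (red, to the right) and lower (blue, to the left) in the antenna for each of the 32 contigs with at least 20 tested genes, whose number stands in brackets. Contig 000036F reaches 32.7% to the right, and 000013F 19.15% to the left, against 8.11% and 9.06% over all genes tested.

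Some called genes lay in the same numbered block of a contig. The names number blocks along each contig. In 12 blocks 3 or more genes were higher, which together held 51 of the 213 higher genes (23.9%), and in 9 blocks 3 or more were lower, with 34 of the 238 lower genes (14.3%). Models on a contig were taken as near copies where their counts differed by at most 2 reads or 5% in each of the 6 libraries, which left 51 of the 51 and 33 of the 34 genes. Models that overlap in part can still share reads, so neighbours are not counted as independent. How many such blocks the shares called over all genes, 8.11% and 9.06%, would give was not worked out. The block counts are therefore a description and do not show that called genes cluster.

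The run with the most higher genes was block 7 of falcon_000018F, where 9 of 11 tested genes were higher and 0 lower, with log2 fold changes from 2.71 to 5.76. These models are short, from 282 to 1805 bases. Together they had 2044, 1277 and 11176 reads in the antenna of pools 3, 4 and 7 and 619, 203 and 1135 in the carcass, which is 1.38%, 2.18% and 1.01% against 0.24%, 0.11% and 0.27% of the reads. The groups did not overlap. The carapace gave 1.67% ± 0.46 of its reads to these 9 genes, against 1.52% ± 0.60 in the antenna (SD, n = 3), and hemocytes between 0.35% and 3.66%. The carapace and antenna libraries overlapped in this share.

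Block 20 of the same contig carried the largest share of antenna reads among the 12 blocks. Its 4 higher genes took 3.27%, 3.78% and 6.59% of antenna reads in pools 3, 4 and 7 and 0.87%, 0.06% and 1.05% of carcass reads, while 1 other gene of the block was lower. They had log2 fold changes from 3.16 to 3.36. Of these, 2 models had 34938 and 35163 reads in the antenna of pool 7 and 1017 and 977 in the carcass of pool 3, so they may count the same reads and are uncertain.

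On falcon_000036F runs of higher genes lay in blocks 3, 4 and 5, with 4 of 8, 3 of 4 and 6 of 10 tested genes. The 6 genes of block 5 took 0.19%, 0.15% and 0.36% of antenna reads and 0.03%, 0.02% and 0.07% of carcass reads. The carapace stood at 0.11% ± 0.04 and the antenna at 0.23% ± 0.11 (SD, n = 3), and their libraries overlapped at the edge, with the highest carapace library at 0.146% and the lowest antenna library at 0.145%.

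Among lower genes, block 2 of falcon_000079F had all of its 10 tested genes called, 9 lower and 1 higher in the antenna. The 9 lower genes had 40, 7 and 165 reads in the antenna of pools 3, 4 and 7 and 392, 328 and 1698 in the carcass, with log2 fold changes from -2.40 to -5.67. Each carcass library lay above each antenna library by share, from 0.15% to 0.41% against 0.01% to 0.03%. Eggs gave them 0.29% ± 0.04 of their reads and carapace 0.26% ± 0.24 (SD, n = 3). The head was low as well, at 0.04% ± 0.03 (SD, n = 3).

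Block 1 of falcon_000016F, with 3 lower genes among 5 tested, was used most in the carcass. These models of 4389 to 4731 bases took 1.73%, 1.30% and 1.23% of carcass reads in pools 3, 4 and 7 and 0.03%, 0.02% and 0.13% of antenna reads, with log2 fold changes from -3.75 to -4.18. The gut came next at 0.41% ± 0.35 (SD, n = 3), and eggs stood at 0.02% ± 0.02. The 4 lower genes in block 38 of falcon_000001F were also used most in the carcass, at 0.25% ± 0.16 of its reads (SD, n = 3). There head came next at 0.05% ± 0.03, while gut stood at 0.02% ± 0.02 and antenna at 0.01% ± 0.01.

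Calls were more frequent among short models. Of 3 equal parts of the tested genes by length, the shortest ended at 1820 bases, and in it 97 of 876 were higher (11.1%) and 102 lower (11.6%). In the longest part, from 4170 bases, 49 of 876 were higher (5.6%) and 63 lower (7.2%). The median length was 2249 bases for higher genes, 2165 for lower genes and 2862 over all genes tested, so both directions leaned to shorter models. By mean level over the 6 libraries, the lowest of 3 equal parts held 47 higher (5.4%) and 143 lower genes (16.3%), and the highest part 117 higher (13.4%) and 47 lower genes (5.4%).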

How the data were processed

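The authors deposited 1 table with the read count of each of 33957 gene models in each of 21 libraries, and their lengths. Per the labels' protocols, a Zymo Research kit gave the RNA and an Oxford Nanopore ligation protocol the cDNA libraries. SAMtools and DESeq2 are named, without a role, in the submitters' processing notes; aligner, build and the handling of reads with several matches are not given there. The deposited counts were used unchanged and the deposited RPKM was not used. Lengths are in bases, as deposited.

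The 6 libraries were filtered with filterByExpr (minimum count 10, leaving out 31330 genes), scaled with TMM factors (0.77 to 1.29) and fitted with edgeR 4.0.16 in R 4.3.3 by quasi-likelihood, 1 mean per body part, two-sided, with Benjamini-Hochberg adjustment and a threshold of 0.05. The other libraries were kept out because the head, gut and hemocyte libraries are unlike within a body part. A fit of all 21 (4035 genes) served the other body parts. Alternatives used DESeq2 1.42.0 and limma 3.58.1. CPM uses TMM-scaled totals, log2 CPM a prior count of 2, and SE is the log2 fold change over the root of its F. The script was tested on simulated data. Counts of replicate libraries differed beyond sampling noise (chi-square per degree of freedom 11.7 or more).

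The number of a replicate marks a shared barcoded pool, so antenna and carcass are paired by pool. Deviations from the body part means correlated at -0.08, 0.04 and 0.44 in pools 3, 4 and 7. The named genes are the 2 largest changes in each direction among genes past the threshold, with 1 direction in 3 of 3 pools and at least 10 reads in each library of the higher body part (154 higher and 230 lower). The members and lists were chosen with earlier results of these data known.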

Additional observations from a re-analysis of the deposited data

How the results depend on the processing

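The named genes kept their direction and their call in every alternative in which they were tested (25 to 27 each), except that maker-falcon_000023F-augustus-gene-8.55 lost its call with DESeq2 on all 21 libraries (log2 fold change -5.74, adjusted p = 0.154). The 213 higher and 238 lower genes became 123 and 398 with library totals only, 134 and 123 with a minimum count of 30 (912 genes tested), and 136 and 94 with libraries thinned to 58544 reads (740 genes tested). Without a filter 425 genes were higher, and against a 2-fold change 109 were. In the 21-library fit, where 6.52% of genes were called, 106 were lower, with the pool as a block there 108, and with RLE factors there, chosen after seeing the data, 93; the cause was not tested. DESeq2 called 269 and 285, and on all 21 libraries, added after seeing the data, 226 and 140. Leaving out 1 library or pool gave 117 to 315 higher and 192 to 275 lower genes, the fewest higher without the carcass of pool 4. The pool as a block in the 6-library fit gave 274 higher and 271 lower genes and kept 210 and 232 of the calls. The difference in the share of the 10 most counted genes, 9.54 percentage points, was 1.6 within pool 3 and 18.04 within pool 7, and 5.31 to 12.08 with 1 library left out; that in genes at a common depth ran from -1181 to -748.6. Of the 213 and 238 calls, 34 and 13 were made in all 27 alternatives and 61 and 46 in every one that tested the gene. The antenna of pool 4, at 58544 reads, limits what can be seen of rare genes.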

Other observations

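Some calls rest on 1 carcass library. A gene of contig falcon_000016F, singled out after its values were seen, had 5211 reads in the carcass of pool 3 but 6 and 21 in pools 4 and 7, and 3, 8 and 246 reads in the antenna of pools 3, 4 and 7. It was called lower in the antenna (log2 fold change -5.14, adjusted p = 0.0431), and without pool 3 it was called higher (2.86, adjusted p = 0.0121). It was the 1 gene whose call changed direction in any of the 27 alternatives. Of the 238 lower genes, 2 had at least 90% of their summed carcass CPM in the library of pool 3, and 0 had as much in that of pool 4 or 7.

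Some gene models held identical counts in all 21 libraries. Of the 2627 genes tested, 24 had such a partner, in 11 sets, of which 7 spanned more than 1 contig. Among called genes 3 higher and 4 lower had one. With 1 model kept for each such set, a choice made after seeing the data, 210 genes were higher and 236 lower.

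The lower genes varied more among antenna libraries than among carcass libraries, with a median SD of 0.97 against 0.69 log2 CPM over the 3 libraries. Among higher genes the values were 0.63 and 0.67, and over all genes tested 0.63 and 0.55. Levels of the lower genes in the antenna rest on few reads.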
